A study of Mus musculus with 2 samples.

Results

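The 10 genes described here encode receptor chains for cytokines and for leptin that cells of the fat stroma use: Il4ra, Il13ra1, Il6ra, Il6st, Osmr, Lifr, Il1r1, Il11ra1, Ifngr1 and Lepr. They were taken by symbol from 32246 gene symbols in the count tables, and all 10 were found. The data are 2 droplet single-cell RNA-seq libraries of subcutaneous white fat from mice, 1 of genotype WT and 1 of genotype Paqr4 transgenic. Both were made from CD45- cells, sorted after digestion with collagenase D, of the stromal vascular fraction, the cells left when fat is digested and the floating adipocytes are removed. The labels give neither the promoter of the transgene nor the strain, age or sex, and the series text speaks of 3 pooled mice without saying whether that is per genotype. Each genotype is 1 library, so no difference between genotypes below has a replicate check and none was tested.

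Cytokine receptors of this kind work as pairs of chains. A private chain binds the ligand, a partner joins it, and Janus kinases bound to their tails switch on STAT transcription factors. IL-4 acts through Il4ra paired either with Il2rg (type I receptor) or with Il13ra1 (type II receptor, shared with IL-13) and on to STAT6. The IL-6 family shares the signalling chain gp130, encoded by Il6st, with Il6ra, Il11ra1, Osmr or Lifr giving each ligand its receptor, and on to STAT3. Il1r1 binds IL-1 and signals through MyD88 and NF-kB rather than through STATs, Ifngr1 binds interferon gamma, and Lepr is the leptin receptor. In fat, stromal progenitors are known as a source and a target of IL-6 family cytokines.

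After filtering (at least 1000 UMIs and 500 genes, at most 10% mitochondrial UMIs, doublets removed), 1328 WT and 1521 transgenic cells remained, with medians of 21612.5 and 18711 UMIs (unique molecular identifiers, 1 per captured RNA molecule) and 0 cell barcodes in common. Clustering gave 1091 WT and 1345 transgenic progenitors, which carry Pdgfra, Dcn and collagen genes, and 95 and 79 endothelial cells. 5 progenitor clusters held at least 100 cells of each library: cluster 0, led by Adamts4, Tfpi2 and Il6; cluster 1, Icam1-like; cluster 2, F3-like; cluster 3, Dpp4-like; and cluster 4, led by the immunoglobulin genes Igha and Jchain beside Fn1 and Aspn. A sixth progenitor cluster, cluster 7, held 29 WT and 104 transgenic cells. Orders and ranges over clusters below are over the 5 unless cluster 7 is named. Paqr4 itself measured 7.46 UPM (a gene's UMIs scaled to 1000000 UMIs of the class) in WT progenitors (6.43 to 8.61) and 9.53 UPM in transgenic ones (8.38 to 10.8), and these 95% intervals overlapped. Xist measured 958 UPM for WT against 0.153 UPM for transgenic progenitors, so the libraries differ in the sex of their mice, and sex and genotype cannot be told apart. Of 10 immune markers, 7 were detected in WT and 10 in transgenic progenitors, at 3.67 and 4.05 UPM in all, with Ptprc at 0 and 3 UMIs.

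Of the 10 receptors, Il4ra differed most between the libraries in progenitors. It encodes the chain that binds IL-4 and lies at chr7:125552120-125579474 on the plus strand (GRCm38). It measured 62.5 UPM in WT progenitors (95% exact Poisson interval 59.5 to 65.7, 1568 UMIs) and 16.9 UPM in transgenic ones (15.4 to 18.6, 442 UMIs). The log2 ratio of transgenic over WT was -1.89 (-2.04 to -1.73), a level 3.70-fold lower. All intervals in the text cover counting error only, and say nothing on how mice differ. The share of progenitors with at least 1 Il4ra UMI was 50.6% for WT against 20.4% for transgenic, and 20.1% against 7.15% once every cell was thinned to 5000 UMIs (24 and 45 shallower cells left out). Transgenic cells that had an Il4ra UMI also held fewer of them, 1.61 against 2.84 per cell.

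Every progenitor cluster had less Il4ra in the transgenic library. In cluster 0 the level was 76.9 UPM in WT and 25.2 in transgenic cells, a log2 ratio of -1.61 (-1.87 to -1.36). Cluster 1, the Icam1-like cells, had 50.3 and 25.5 UPM, a log2 ratio of -0.98 (-1.31 to -0.66) and the smallest of the 5. The F3-like cells of cluster 2 had 51.2 and 12.7 UPM, a log2 ratio of -2.02 (-2.46 to -1.60). Lower ratios still were found in clusters 3 and 4. The Dpp4-like cells of cluster 3 had 63.4 and 9.16 UPM, a log2 ratio of -2.79 (-3.32 to -2.30). Cluster 4 had 57.1 and 5.44 UPM, the latter from 16 UMIs, a log2 ratio of -3.39 (-4.23 to -2.65), and cluster 7 stood at -2.43 (-3.78 to -1.18). Within WT, cluster 0 stood above the interval of cluster 3, and from cluster 3 through 4 and 2 to 1 each interval overlapped the next. Within transgenic, clusters 1 and 0 overlapped each other and stood above cluster 2, and clusters 2, 3 and 4 overlapped in turn.

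Free RNA was measured beside this. Barcodes at 50 or fewer UMIs, which hold RNA from the suspension and no cell, had 45.4 UPM of Il4ra in WT (38.5 to 53.3) and 22.7 UPM in transgenic (16.6 to 30.4). The level over all transgenic progenitors, 16.9 UPM, was below that of the free RNA, as were clusters 2, 3, 4 and 7, while the 62.5 UPM of WT progenitors was above theirs, with cluster 7 below it at 28.5 UPM. The part of free RNA in the difference was not tested. Cluster 8, 25 WT and 5 transgenic cells led by pancreatic enzyme genes such as Clps and Ctrb1 and with a median of 10711 UMIs per WT cell, had 0 Il4ra UMIs. At that depth, 0 of 25 WT cells allows up to 12% of cells with an UMI. The WT shares were 36.3% to 64.2% in the 5 clusters and 10.3% (3 of 29 cells) in cluster 7, at a median of 22858 UMIs over all WT progenitors. Of the other receptors, those WT cells had 1 UMI of Osmr, 3 of Lifr and 3 of Il11ra1, and 0 of the rest. The antisense gene Gm44876, which overlaps Il4ra, had 1 UMI in WT and 0 in transgenic progenitors.

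**Figure D1:**
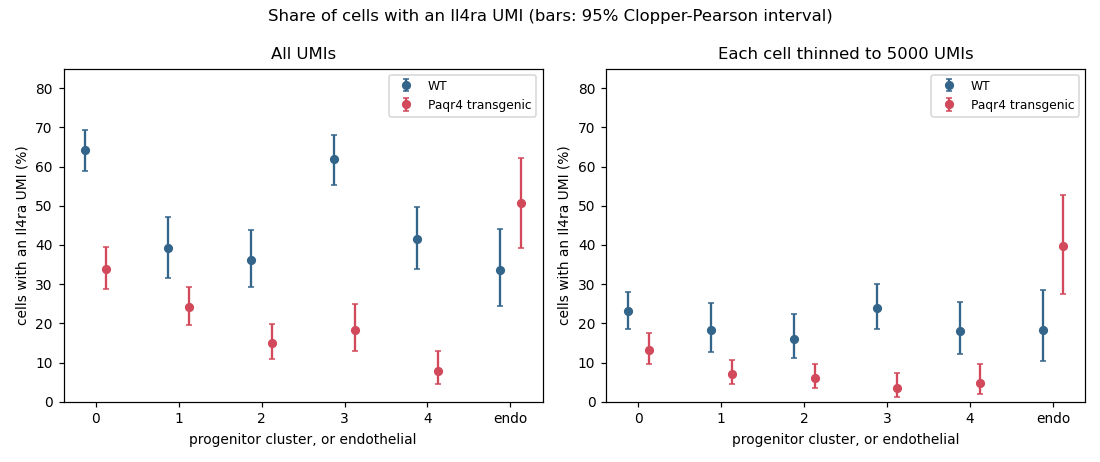
Percentage of cells with at least 1 Il4ra UMI (y axis) in progenitor clusters 0 to 4 and in endothelial cells (x axis), WT in blue and Paqr4 transgenic in red, from all UMIs (left) and with each cell thinned to 5000 UMIs (right); points are single libraries and bars 95% Clopper-Pearson intervals. The transgenic point is below the WT point in all 5 progenitor clusters and above it in endothelial cells, where it is 50.6% against 33.7%.

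The start of Il4ra is shown here because this receptor carries the main difference, with those of Osmr and Lifr, neighbouring genes of the IL-6 family that peaked in different clusters. The sequences are RefSeq windows of 300 bases on GRCm38.p6, 250 before and 50 after a transcript start, written 5′ to 3′ on the strand of the gene. Capitals mark GGGCGG or its reverse complement CCGCCC, the letters of a GC box.
Il4ra, chr7:125552021-125552320, plus strand: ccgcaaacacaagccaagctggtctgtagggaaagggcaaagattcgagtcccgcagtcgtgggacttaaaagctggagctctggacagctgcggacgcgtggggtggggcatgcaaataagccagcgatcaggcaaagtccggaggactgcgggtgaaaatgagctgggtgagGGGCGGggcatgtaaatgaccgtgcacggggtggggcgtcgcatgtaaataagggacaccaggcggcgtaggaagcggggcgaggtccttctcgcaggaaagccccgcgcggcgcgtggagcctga
Osmr, chr15:6874264-6874563, minus strand: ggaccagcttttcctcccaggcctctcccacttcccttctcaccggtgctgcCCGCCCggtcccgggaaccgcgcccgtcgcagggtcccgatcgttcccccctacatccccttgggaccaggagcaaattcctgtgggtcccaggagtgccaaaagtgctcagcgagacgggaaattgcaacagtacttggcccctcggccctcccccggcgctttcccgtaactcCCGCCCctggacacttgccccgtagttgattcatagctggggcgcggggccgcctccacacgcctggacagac
Lifr, chr15:7129322-7129621, plus strand: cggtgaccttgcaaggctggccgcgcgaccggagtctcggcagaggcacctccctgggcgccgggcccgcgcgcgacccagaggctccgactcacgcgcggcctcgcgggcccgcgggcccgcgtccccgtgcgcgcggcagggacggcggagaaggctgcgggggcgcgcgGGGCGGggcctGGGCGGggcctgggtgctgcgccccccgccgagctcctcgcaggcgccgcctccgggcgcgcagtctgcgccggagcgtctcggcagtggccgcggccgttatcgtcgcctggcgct
Il4ra has 1 such match, at base 175, Osmr has 2 on the opposite strand and Lifr has 2. Of 32851 RefSeq promoter windows, 35.7% hold GGGCGG on either strand. Neither STAT-type motif searched, TTCNNNGAA and TTCNNNNGAA (each reads the same on both strands in its fixed letters), was found in any window of the 10 genes. Of all windows, 8.30% and 6.95% hold them, and the absence says only that these letters are not in these 300 bases.

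The type II partner chain of the IL-4 receptor differed far less. Il13ra1, the type II partner, measured 49.7 UPM for WT against 44.1 UPM for transgenic progenitors, a log2 ratio of -0.17 (-0.29 to -0.06). By cluster the ratio ran from -0.25 in cluster 2 to 0.16 in cluster 4, and all 5 intervals included 0. It was 0.03 with cells thinned to 5000 UMIs and 0.00 with equal weights for the clusters. The gene is on chromosome X, and the libraries differ in Xist as given above. Il13ra1 was highest in the Dpp4-like cells in both libraries, at 71.7 and 69.6 UPM, and lowest of the 5 clusters in the Icam1-like cells of WT and the F3-like cells of transgenic, at 32.3 and 27.8 UPM. Il2rg, the type I partner, had 1 UMI in WT and 4 UMIs in transgenic progenitors. Endothelial cells had 28.3 and 36.5 UPM of it, from 27 and 22 UMIs. In thinned progenitors, Il4ra and Il13ra1 were seen together in 3.37% (2.37% to 4.64%) for WT and 1.31% (0.764% to 2.09%) for transgenic. Il13ra1 was seen in 16.7% of the WT cells with an Il4ra UMI and in 18.0% of those without, and in 18.3% and 16.1% for transgenic. Il13ra2, a decoy chain for IL-13, had 26 and 16 UMIs in progenitors.

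In the IL-6 family every value over all progenitors lay within 1.5-fold between the libraries, and the clusters differed more. Il6st, the shared gp130 chain, was found in nearly every progenitor. It measured 295 UPM for WT against 262 UPM for transgenic progenitors (log2 -0.17, -0.22 to -0.13), with an UMI in 96.4% and 92.0% of cells. Across clusters it ran from 239 to 352 UPM in WT and from 220 to 336 UPM in transgenic. Cluster 0 was highest in both. The F3-like cells showed the largest gap, 348 against 274 UPM (log2 -0.34, -0.46 to -0.23).

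Osmr, the oncostatin M chain, was concentrated in cluster 0, whose leading genes include Il6 and Ccl7. Cluster 0 had 531 UPM for WT against 504 UPM for transgenic cells, and the other 4 clusters ran from 187 to 255 UPM and from 203 to 270 UPM. In all progenitors it measured 329 and 310 UPM (log2 -0.09, -0.13 to -0.04), and the ratio by cluster ran from -0.15 to 0.12. The lowest, in the Icam1-like cells, was above 0 in 32 of 43 other clusterings. Summed over 12 genes of the dissociation response, such as Fos and Egr1, progenitors had 18149 UPM for WT against 17053 UPM for transgenic, and their part in the pattern was not tested.

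Lifr, the chain for LIF, peaked in another cluster than its chromosome neighbour. The genes lie 215644 bp apart on chromosome 15, Osmr at chr15:6813577-6874969 on the minus strand and Lifr at chr15:7090614-7197489 on the plus strand. Of the 5 progenitor clusters, Lifr was highest in the Icam1-like cells, at 344 UPM for WT against 238 UPM for transgenic, and lowest in the Dpp4-like cells, at 32.0 and 20.8 UPM. Cluster 9, an unnamed cluster of 51 WT and 22 transgenic cells led by Rgs5 and Trpc6, had more, 664 and 539 UPM. Free RNA had 72.2 and 72.8 UPM, and its part was not tested. The Dpp4-like cells of both libraries and cluster 4 of transgenic, at 69.8 UPM, were below it. The order of clusters 1, 0, 2, 4 and 3 was the same in both libraries, with no overlap between the intervals of progenitor clusters next to each other. Over the 12 pairs of cluster and library (5 progenitor clusters and endothelial cells in each library, which share library and depth), Pearson's r of the log2 levels of Osmr and Lifr was 0.21.

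Lifr was lower in the transgenic library in each of the 5 clusters. In the Icam1-like cells the log2 ratio was -0.53 (-0.64 to -0.42). In cluster 2 the levels were 151 and 102 UPM, a ratio of -0.57 (-0.75 to -0.39), and in cluster 3 the ratio was -0.62 (-1.01 to -0.25), just past 1.5-fold. Clusters 0 and 4 stood at -0.40 and -0.39. The ratio over all progenitors was smaller, -0.29 (-0.36 to -0.22), from 146 and 119 UPM. The Icam1-like cells, which hold the most Lifr, made up 14.8% of WT and 23.1% of transgenic progenitors. With equal weights for the clusters the ratio was -0.53.

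Il6ra, the chain that binds IL-6, separated progenitors from endothelial cells. It measured 137 UPM for WT against 120 UPM for transgenic progenitors (log2 -0.18, -0.25 to -0.11) but only 3.14 and 3.32 UPM in endothelial cells, from 3 and 2 UMIs. The share of cells with an UMI was 70.9% and 72.0% in progenitors against 3.16% and 2.53% in endothelial cells, at median depths of 9857 and 7584 UMIs for the latter. Barcodes of free RNA had 41.5 and 53.6 UPM, and both endothelial levels were below these. Among progenitors, clusters 0 and 3 were highest in both libraries, with 182 and 165 UPM in WT and 160 and 126 UPM in transgenic. The library difference changed sign with the cluster: -0.39 (-0.54 to -0.23) in the Dpp4-like and 0.42 (0.20 to 0.63) in the Icam1-like cells, the latter at 76.7 and 102 UPM. The value in the Icam1-like cells was -0.17 at a Leiden resolution of 0.3 and -0.00 under separate clustering of the libraries.

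Il11ra1, the IL-11 chain, was the member most above 0 between the libraries, still within 1.5-fold. It measured 105 UPM in WT (101 to 110) and 142 UPM in transgenic progenitors (138 to 147), a log2 ratio of 0.43 (0.36 to 0.50). By cluster the ratio was 0.31 in cluster 0, 0.34 in cluster 1 and 0.16 in cluster 2, while in clusters 3 and 4 it was 0.06 and 0.04 with intervals that included 0. Of the 5 clusters, the Icam1-like and F3-like cells were highest, at 149 and 159 UPM in WT and 189 and 177 UPM in transgenic, and the Dpp4-like cells lowest, at 50.7 and 52.7 UPM. Cluster 7 had 124 and 202 UPM. Endothelial cells had 11 and 9 UMIs, or 11.5 and 14.9 UPM. Its value is less certain than the others, since the near-identical Il11ra2 could share reads with it (1 UMI in WT progenitors, 0 in transgenic), and Galt, at 6.82 and 6.43 UPM, overlaps it on the same strand. Free RNA had 80.4 UPM of Il11ra1 for WT and 121 UPM for transgenic, the same direction and above the levels of endothelial and Dpp4-like cells, and its part was not tested.

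**Figure D2:**
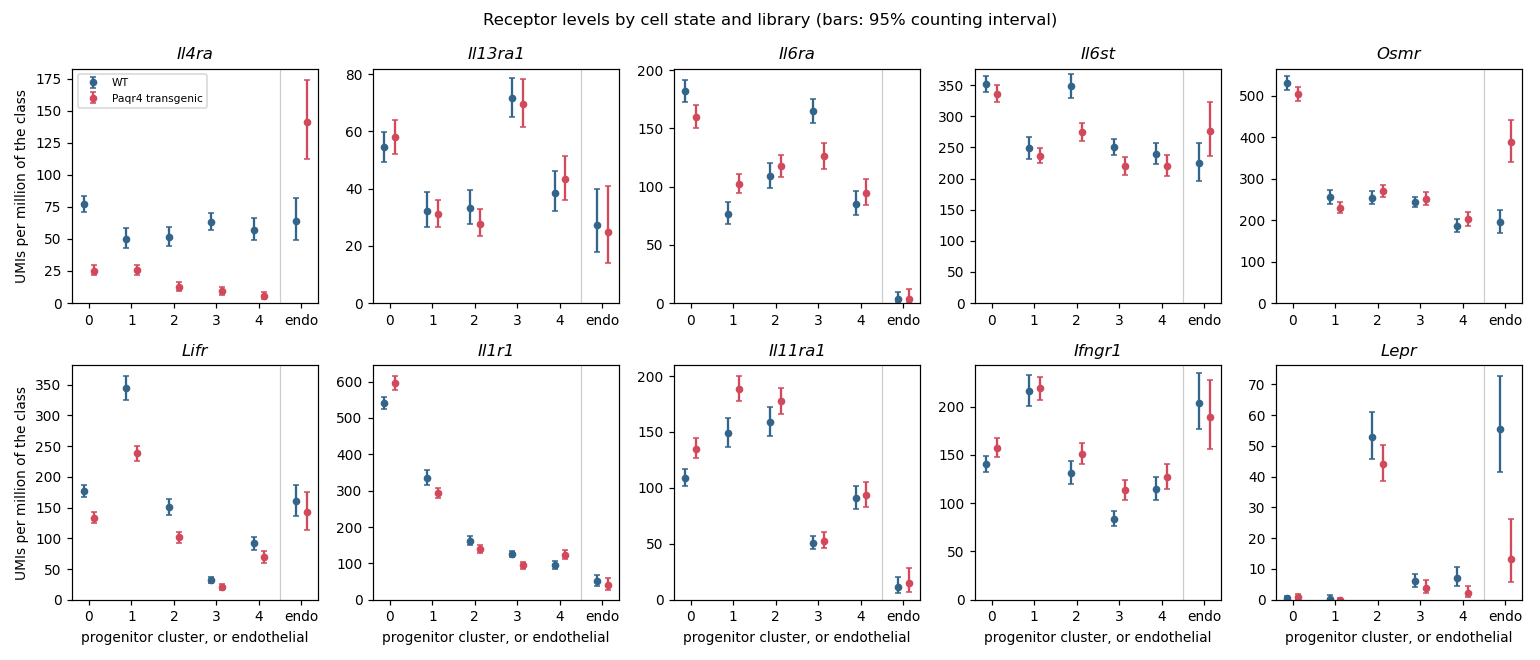
Level of each receptor in UPM (y axis, from 0, own scale per panel) in progenitor clusters 0 to 4 and in endothelial cells (endo), WT in blue and Paqr4 transgenic in red; points are single libraries and bars 95% exact Poisson intervals. Osmr and Il1r1 peak in cluster 0, Lifr in cluster 1, Il13ra1 in cluster 3 and Lepr, within progenitors, in cluster 2, while Il4ra separates the libraries in all 5 clusters.

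Il1r1, the signalling receptor for IL-1, had a ratio near 0 over all progenitors, with 289 UPM for WT against 288 UPM for transgenic (log2 -0.01, -0.05 to 0.04). Its cluster pattern was steep. Cluster 0 had 541 and 597 UPM and the Icam1-like cells 335 and 294 UPM, whereas clusters 2, 3 and 4 ran from 96.3 to 163 UPM in WT and from 95.1 to 139 UPM in transgenic. By cluster the log2 ratio ran from -0.40 (-0.58 to -0.23) in cluster 3 to 0.37 (0.14 to 0.59) in cluster 4. Free RNA of Il1r1, given below beside endothelial cells, was higher in the transgenic library. In that library it was above the levels of clusters 3 and 4, and its part was not tested. The cluster 4 value was below 0 in 30 of 43 other clusterings (-0.69 to 0.81), and the cluster 3 value above 0 in 9 of them. Single cells held up to 168 UMIs in WT and 201 in transgenic, both in cluster 0. The 5 richest progenitors held 8.53% and 7.92% of the UMIs. The richest cells held 43 and 33 UMIs in cluster 3, and 20 and 46 in cluster 4. Counting intervals leave out such spread between cells and so are too narrow. Il1rap, its partner chain, measured 25.7 and 29.3 UPM in progenitors.

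Ifngr1, the interferon gamma receptor, measured 131 UPM for WT against 155 UPM for transgenic progenitors (log2 0.24, 0.17 to 0.31). Of the 5 clusters it was highest in the Icam1-like cells of both libraries, at 216 and 219 UPM, with a ratio there of 0.02 (-0.12 to 0.15). It was lowest in the Dpp4-like cells, at 83.9 and 113 UPM, which showed the largest ratio, 0.43 (0.25 to 0.62). Ifngr2, the second chain, measured 30.7 and 35.6 UPM.

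Lepr was found in few progenitors. Only 5.59% of WT and 5.06% of transgenic progenitors had an UMI, at 10.6 and 9.68 UPM. The F3-like cells held 195 of the 265 WT UMIs and 216 of the 253 transgenic UMIs, at 52.9 UPM (45.7 to 60.8) and 44.1 UPM (38.4 to 50.4). The Icam1-like cells had 1 UMI in WT and 0 in transgenic, where 0 of 311 cells allows up to 0.965% of cells with an UMI at this depth. Within the F3-like cells the UMIs sat in few cells. In each library 11 cells held 5 or more Lepr UMIs (a threshold chosen after the values were seen), and they carried 85.6% of that cluster's Lepr UMIs in WT and 72.7% in transgenic. The log2 ratio over all progenitors was -0.13 (-0.38 to 0.13), but -1.01 with doublets kept and -0.75 at a Leiden resolution of 0.8 (both with Lepr under 10 UPM in both libraries), and -1.56 where the libraries were clustered separately. The ratio was 0.20 with every cell thinned to 5000 UMIs and -0.00 without the 5 richest cells. It was above 0 in 2 of 43 other clusterings. Free RNA had 4.51 and 4.04 UPM.

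The count of receptors past a threshold was set beside that of all genes. With 1.5-fold as the threshold and 10 UPM in either library as the floor, all 10 passed the floor in progenitors, 1 was lower in the transgenic library (Il4ra) and 0 were higher, and 1.84% of 8729 symbols were lower and 2.94% higher. The median log2 ratio of the 10 was -0.15, against 0.10 over all symbols. 9 passed the floor in clusters 0, 1, 3 and 4 and 10 in cluster 2, with Lepr the one below it. Il4ra was past 1.5-fold lower in all 5 clusters and Lifr in cluster 3, and none was past 1.5-fold higher. In clusters 3 and 4 Il4ra passed the floor through WT alone, with 9.16 and 5.44 UPM in transgenic cells. Lifr in cluster 3 was past 1.5-fold lower in 8 of 43 other clusterings, with all 43 below 0. Its levels in cluster 3 were below those of free RNA in both libraries. Cluster 7, with 29 WT cells, is outside these counts, and no share of all symbols was computed for it. The number of receptors past 1.5-fold there can therefore not be read against all genes. Il4ra and Lifr were lower there (log2 -2.43 and -1.39). Il6ra (31.9 and 68.8 UPM), Osmr (151 and 265 UPM), Il1r1 (149 and 227 UPM) and Il11ra1 (124 and 202 UPM) were past 1.5-fold higher there. The shares of all symbols that were lower were 3.65% in cluster 0, 4.7% in cluster 1, 4.86% in cluster 2, 4.41% in cluster 3 and 5.12% in cluster 4, and those higher were 4.57%, 5.28%, 5.74%, 7.55% and 8.04%. Thinned to equal depth, a progenitor showed a median of 4 of the 10 receptors in either library, and an endothelial cell 3.

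**Figure D3:**
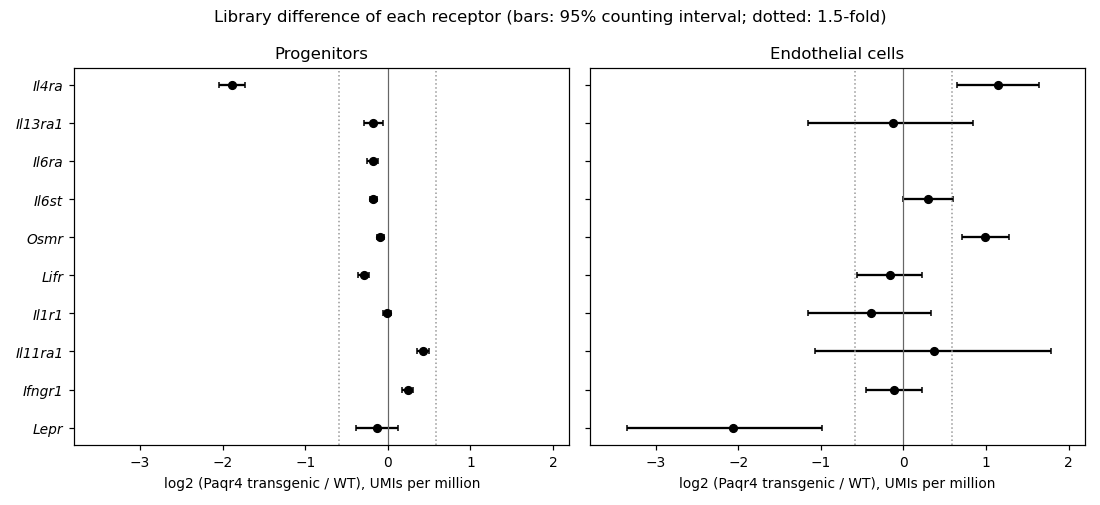
Log2 ratio of Paqr4 transgenic over WT (x axis) for each receptor in progenitors (left) and endothelial cells (right), with 95% exact conditional binomial intervals as bars and dotted lines at 1.5-fold; Il6ra has no endothelial value because both libraries are at 3 UMIs or fewer. Il4ra lies at -1.89 in progenitors and 1.14 in endothelial cells, and 9 of the 10 progenitor values lie within 1.5-fold.

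Endothelial cells gave a different picture. Il4ra was higher there in the transgenic library, at 141 UPM (113 to 174, 85 UMIs) against 63.8 UPM in WT (48.8 to 82.0, 61 UMIs), a log2 ratio of 1.14 (0.65 to 1.64), and an UMI was seen in 50.6% against 33.7% of cells. Over 34 other clusterings with an endothelial class, the Il4ra ratio was above 0 in 21 and below 0 in 13. The 21 held exactly the same endothelial cells as here, so their ratio could not differ. The 13 below 0 are those that divided the cluster. Osmr measured 388 UPM against 196 UPM (log2 0.99, 0.70 to 1.27). Free RNA of Osmr differed the same way, 156 UPM against 99.9 UPM, and its part was not tested. Lepr measured 13.3 UPM, from 8 UMIs in 4 cells, against 55.5 UPM from 53 UMIs in 29 cells (log2 -2.06, -3.35 to -0.98). Il6st, Lifr, Il1r1, Il13ra1, Il11ra1 and Ifngr1 had log2 ratios from -0.39 to 0.37, and each interval reached 0. Of 9 receptors above the floor, 1 was past 1.5-fold lower and 2 were higher, in a class where 19.4% of 9259 symbols were lower and 15.7% higher. Progenitor markers in these cells summed to 1306 and 822 UPM, most of it Ly6a (1063 and 736 UPM), and Dcn measured 134 and 28.2 UPM. Endothelial Il1r1, at 52.3 and 39.8 UPM, was below its free RNA of 77.6 and 129 UPM.

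The 2 libraries did not hold the same endothelial cells. Of 43 other clusterings, 13 divided this cluster, and placing each cell where most of those 13 put it, a division added after the values were seen, gave a group led by Col13a1 and Plvap and a group led by Cldn5 and Gfod1. The first made up 65.3% of WT endothelial cells (62 of 95, 54.8% to 74.7%) and 19.0% of transgenic ones (15 of 79, 11.0% to 29.4%). Il4ra differed between the groups. In the first group it measured 29.3 UPM for WT against 25.7 UPM for transgenic, the latter from 3 UMIs (log2 -0.19, -2.60 to 1.60), and in the second 117 and 169 UPM (log2 0.52, -0.02 to 1.09). Both intervals include 0. The part of the group shares in the ratio of 1.14 for the whole class was not tested. Cluster 8, led by pancreatic enzyme genes, held 25 WT and 5 transgenic cells. The epithelial cluster 13 held 9 and 6, and cluster 5, led by Upk3b, held 13 and 11. The tissue of origin of the endothelial cells was not tested.

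Lepr UMIs lay almost wholly in the first group, at 89.6 and 60.0 UPM there against 1 UMI in each library in the second, and its ratio within the first group was -0.58 (-1.96 to 0.56). Osmr differed from both. It was higher in the transgenic library in each group, 291 against 150 UPM in the first (log2 0.96, 0.34 to 1.55) and 411 against 266 UPM in the second (log2 0.63, 0.27 to 0.99). Lifr had opposite signs, 0.71 (0.10 to 1.29) in the first group and -0.37 (-0.95 to 0.20) in the second. So did Il1r1, at 0.99 (0.06 to 1.86) and -0.70 (-2.24 to 0.80), the latter from 10 and 8 UMIs. Il6st stood at 0.72 (0.14 to 1.26) and -0.04 (-0.42 to 0.35).

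**Figure D4:**
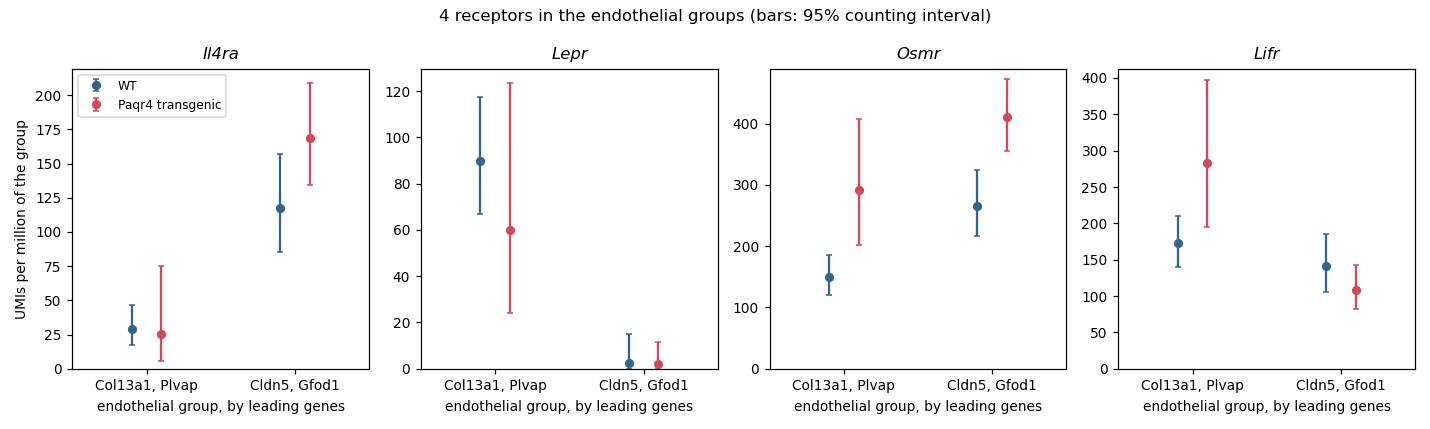
Level of 4 receptors in UPM (y axis, from 0) in the endothelial groups led by Col13a1 and Plvap (62 WT and 15 transgenic cells) and by Cldn5 and Gfod1 (33 and 64 cells), WT in blue and Paqr4 transgenic in red, with 95% exact Poisson intervals. Il4ra is higher in the second group and Lepr in the first in both libraries, and Osmr is higher in transgenic cells of both groups.

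The pathway around the receptors was read from lists of known genes. Of 15 ligands, Il6 alone passed 10 UPM in progenitors, at 414 UPM for WT against 318 UPM for transgenic (log2 -0.38), and none did in endothelial cells. Of 18 other receptor chains above the floor, 1 was lower, Prlr, the prolactin receptor, at 30.1 and 10.0 UPM (log2 -1.59, -1.80 to -1.38), and 1 was higher, Cntfr, a chain for ciliary neurotrophic factor, at 10.2 and 15.6 UPM (log2 0.61). Il15ra and Crlf2 had log2 ratios of -0.55 and 0.40. The median over the 18 was 0.02. None of 8 Janus kinases and STATs above the floor was past 1.5-fold (median -0.04): Jak2 had the largest ratio, -0.50, and Stat6 measured 40.9 and 42.6 UPM.

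Genes listed as targets of STAT6, the factor below the IL-4 receptor, were few in these cells: 5 of 12 passed the floor in progenitors, 2 were lower and 0 higher, with a median log2 of -0.42. Both lower genes, Ccl8 and Cish, were under 10 UPM in transgenic and passed the floor through WT alone, so the count lends no support to a direction. Ccl8, a chemokine, measured 10.0 UPM for WT against 3.14 UPM for transgenic (log2 -1.67, -2.05 to -1.31). Cish, a feedback inhibitor that also answers STAT5, measured 20.3 and 9.03 UPM (log2 -1.17, -1.39 to -0.94), and was also the 1 lower gene of 15 feedback genes, of which 0 were higher (median 0.07). Socs1 and Ccl11 had log2 ratios of -0.42 and -0.29. In endothelial cells 3 of 5 STAT6 targets above the floor were lower and 0 higher (median -1.51), where 19.4% of all symbols were lower. Ch25h (16.7 and 1.66 UPM) and Itgb3 (18.8 and 6.63 UPM) passed the floor through WT alone. The median is the value of Itgb3, with an interval of -3.53 to 0.10. This count, too, lends no support to a direction. Ccl11, also lower, measured 85.8 and 13.3 UPM. Progenitor genes were lower in these cells too, such as Dcn at 134 and 28.2 UPM and Sema3c at 137 and 21.6 UPM, and their part was not tested.

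Of 12 STAT3 targets above the floor in progenitors, 1 was lower, Myc (log2 -0.62), and 2 were higher, Hp, which encodes haptoglobin (1.91 and 14.8 UPM, log2 2.95, past the floor through transgenic alone), and Serpina3n (0.69), with a median of -0.31. Cebpb had a ratio of -0.50. In endothelial cells, 9 STAT3 targets passed, 5 were higher and 0 lower (median 0.69), where 15.7% of all symbols were higher. Socs3 was among the higher genes at 120 and 194 UPM. Myc (4 and 16 UMIs) and Hp (0 and 7 UMIs) passed the floor through transgenic alone, so the count lends no support to a direction. The 12 dissociation genes, with Junb in both lists, summed to 6068 and 7771 UPM in endothelial cells, and their part was not tested. The endothelial groups differed in share as given above, and their part was not tested. The IL-1 relay had 13 above the floor in progenitors, with Irak2 higher (log2 0.92) and none lower (median -0.18); Myd88, Nfkbia and Traf6 had ratios of -0.57, -0.36 and 0.29. The feedback genes Socs3 and Pias1 had ratios of -0.35 and 0.27, and Stat5a, Tyk2 and Jak1 of -0.26, 0.22 and -0.20; these list medians stand beside 0.10 for all symbols in progenitors and -0.04 in endothelial cells. In endothelial cells 3 of 15 other receptor chains above the floor were lower and 2 higher (median 0.11), 0 and 3 of 9 Janus kinases and STATs (0.29), 1 and 1 of 15 feedback genes (-0.00), and 1 and 4 of 13 IL-1 relay genes (0.54).

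For each receptor the 3 symbols closest in level over the 12 pairs of cluster and library were listed, by Pearson's r of log2(UPM + 1). The values describe these clusters, which were made from the same cells and share library and depth. Il6ra was closest to Pdpn, Plat and Bend6 (r of 0.99 each), and Il11ra1 to Slc43a1, Gpx3 and Clec11a (0.99 each), in both cases with endothelial cells far below progenitors. Il1r1 was closest to Gadd45b (0.97), Por (0.96) and Tnfsf9 (0.94). Lifr was closest to Gask1b (0.96), Ifitm2 (0.94) and Robo2 (0.93), and Ifngr1 to Vwa1, Plod1 and Spry1 (0.96, 0.96 and 0.95). Il13ra1 was closest to Ggct (0.93), Acsl4 and Irak3 (0.92 each), Osmr to Ppme1 (0.92), Slc16a1 and Stn1 (0.88 each), and Il6st to Slc16a1 and Jmjd1c (0.89 each) and Arid5a (0.85). Lepr was closest to Cgnl1 (0.88), BC052040 (0.87) and Abcc9 (0.83). Il4ra had the lowest closest values beside Lepr, with Crtc2, Kdm5c and Tll1 at 0.85 each.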

How the data were processed

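The authors deposited raw UMI counts for all barcodes of each library. Per the submitters' processing notes, Cell Ranger 7.0.0 and mm10 were used, whereas per the file headers the matrices came from Cell Ranger 4. The handling of strand and shared reads was not given in the sources used here. Total UMIs were 44145257 for WT and 43084906 for Paqr4 transgenic, with 28418301 and 28230354 from cells that passed the filters.

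Symbols were summed, cells were filtered at 1000 UMIs, 500 genes and 10% mitochondrial UMIs, and 1 WT and 4 transgenic doublets called by Scrublet were removed. Those are 0.0752% and 0.262% of cells, so doublets may remain. Clustering used scanpy 1.11.5 (symbols in at least 3 cells, 10000 UMIs per cell, log, 2000 variable genes, scaled and clipped at 10, 30 components, 15 neighbours, Leiden at 0.5 with igraph 0.11.9, seed 1). These settings were picked, after other settings had been run, by how near the cluster sizes came to those of an earlier analysis of these data, with the Dpp4-like, endothelial and Itgbl1 clusters apart and without looking at receptor values. The 43 other clusterings are used as an alternative added after seeing the data. Clusters were named from marker lists (25% of the highest cluster and 20 UPM, at least 50% of the markers and 3 of them).

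UMIs per class were divided by the class total. Intervals (95%) are exact Poisson for levels, Clopper-Pearson for shares and exact conditional binomial for ratios. They leave out variation between cells and mice. Only the ratio intervals were tried on simulated data, Poisson counts without that variation, so this could not show how far they are too narrow. A value needs more than 3 UMIs in a library. With 1 library per genotype no test was run. The receptors and lists were chosen with earlier results of these data known, among them the low Il4ra level, so that pattern is no independent support. Named genes are the 10 receptors, up to 4 per list with the largest absolute ratio at 10 UPM or more, and the 3 closest per receptor among symbols at 20 UPM or more; predicted genes were left out of the last. Partner chains, Stat6, endothelial Socs3, Ccl11, Ch25h and Itgb3, markers and cluster genes were named outside that rule. Gene positions are from GENCODE M21 (GRCm38) and promoters from RefSeq (GRCm38.p6). No column of values lacked a sample. A gene of the JAK and STAT list and a further list are not reported here.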

Additional observations from a re-analysis of the deposited data

Results flagged for a closer look

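4 receptors were higher in the transgenic library in one class or cluster and lower in another, with both counting intervals clear of 0. None of these differences was tested, since each genotype is 1 library. Il4ra had a log2 ratio of -3.39 in cluster 4 and 1.14 in endothelial cells. The endothelial value was below 0 in 13 and above 0 in 21 of the 34 other clusterings with an endothelial class (-1.03 to 1.14). The 21 held exactly the same endothelial cells, so their value could not differ, and the 13 divided the cluster. Beside it stand the shares of the endothelial groups, 65.3% of WT and 19.0% of transgenic cells in the group led by Col13a1 and Plvap, with ratios of -0.19 and 0.52 inside the groups. Osmr had -0.15 in the Icam1-like cells of cluster 1 and 0.99 in endothelial cells, and 0.96 and 0.63 inside the endothelial groups; the cluster 1 value was above 0 in 32 of 43 other clusterings. Il6ra had -0.39 in the Dpp4-like cells of cluster 3 and 0.42 in cluster 1. Il1r1 had -0.40 in cluster 3 and 0.37 in cluster 4, and the latter was below 0 in 30 of the 43 clusterings (-0.69 to 0.81) and -0.65 with cells at 2000 or more UMIs. Free RNA of Il1r1 was higher in the transgenic library, and its part was not tested.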

How the results depend on the processing

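No paired analysis was possible because each genotype is 1 library, numbered in accession order. Of 675 values of single receptors under alternative settings, 552 stayed within their counting interval and 123 moved outside it. A change of direction was counted only where the main value was past 1.5-fold and above 10 UPM, and 0 such values changed. Smaller ratios could change sign without being counted, as for Il6ra in cluster 1, at 0.42 and down to -0.17. The 43 other clusterings are not part of these 675 values. Il4ra in progenitors ran from -1.98 to -1.73, and from -1.92 to -1.79 over the 43 other clusterings, with all 43 below 0 in each of the 5 clusters too. In progenitors 1 receptor above 10 UPM was past 1.5-fold lower, and 2 (Il4ra and Lepr) under separate clustering of the libraries, and 0 were higher. Lepr was also past 1.5-fold lower with doublets kept, at a Leiden resolution of 0.8 and in 1 of the 43 clusterings (-0.66), but under 10 UPM in both libraries and so not counted. With every cell thinned to 5000 UMIs its ratio was 0.20. In endothelial cells the lower count became 2 with the mean over cells and without the 5 richest cells, and the higher count 4 with doublets kept and 1 at a 2-fold threshold. Over 34 other clusterings with an endothelial class, the lower count was 0, 1 or 2 and the higher count 2 or 4. Of these, 21 held exactly the same endothelial cells and could not differ. In the endothelial group led by Col13a1 and Plvap, with 15 transgenic cells, Il6st, Osmr, Lifr and Il1r1 were past 1.5-fold higher and none lower, with Il4ra at -0.19. In the group led by Cldn5 and Gfod1, Osmr was past 1.5-fold higher and Il1r1 lower. No share of all symbols past 1.5-fold was computed for either group, so these numbers of receptors cannot be read against all genes. In the whole endothelial class 19.4% of symbols were lower and 15.7% higher. In 9 clusterings, and for WT under separate clustering, no endothelial class was named. Summed over the 5 progenitor clusters, 6 receptor values were lower and 0 higher; the lower count reached 11 in 2 other clusterings, and the higher count was 1 at 2000 or more UMIs, 2 at a Leiden resolution of 0.8, 3 under separate clustering, and 0, 1 or 2 over other clusterings. 7 of the 10 receptors had the same highest cluster or class in both libraries, and 5 to 8 under the alternatives. The ligand list had a median of 0.20 over 9 genes with no floor other than 3 UMIs; the other lists stayed within their intervals. Depth limits the endothelial values most, where 3 UMIs are 3.14 UPM for WT and 4.97 UPM for transgenic.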
